A study of Homo sapiens with 4 samples.

Results

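The genes that encode integrins and laminins carried 100 of the 17625 sites in the deposited list of P5CS sites. They were chosen by symbol, taking names that begin with ITGA, ITGB1 to ITGB8, or LAMA, LAMB or LAMC with 1 digit. In the RefSeq gene table this pattern takes 38 protein-coding genes, 26 integrins and 12 laminins, and 10 of them had a site. P5CS, the enzyme that makes pyrroline-5-carboxylate on the way to proline, was profiled by LACE-seq in NCI-H1299, an established human lung cancer line. LACE-seq amplifies the cDNA ends that form on RNA pulled down with an antibody. The 4 libraries, all of this line with no treatment named in the labels, were 2 anti-P5CS and 2 IgG pull-downs, and separate cultures for replicates are not stated. The study's question is whether this metabolic enzyme also binds RNA.

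Integrins are receptors at the cell surface, each built of an alpha and a beta subunit, that tie the extracellular matrix to the actin cytoskeleton. Laminins are trimers of an alpha, a beta and a gamma chain and the main adhesive protein of basement membranes. Epithelial cells rest on laminin chiefly through integrins that contain the ITGA3 or the ITGA6 subunit.

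The list gives each site a position, a strand, a region and a gene, and no level, score or value per library. The anti-P5CS and IgG libraries could therefore not be compared, library depth is unknown, and the count of sites in a gene carries no replicate error. No source used here says whether sites seen with IgG were removed. The amount of each RNA in these cells was not analysed here, so the labelled cell type could not be checked against marker levels. The sources used here do not say whether the listed strand is that of the RNA or of the sequenced cDNA, and an opposite-strand site below is therefore not a statement about antisense RNA. Site edges lie on a grid of 20 bases, the smallest width is 21 bases, and coordinates are those of the list on hg38. Intervals are exact binomial 95% intervals for counting error only, and they are too narrow because sites of 1 gene are not independent.

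Sequence at the 5′ ends is shown first, because 25 of the 100 sites lay within 500 bases of the start of their assigned transcript. ITGA3 held 16 of the 25 and is not represented in these sequences. RefSeq start windows (GRCh38.p14, from 250 bases before to 50 after the start) were at hand for 8 of the 10 genes with a site, and not for ITGA3 and LAMC3. Of the 33 windows held for the family, 1 overlapped a site, against 0.686% of 35116 windows of all genes. That site was in ITGAV, at chr2:186590100-186590120, annotated as 5′ UTR and on the strand opposite to the gene. The run below is the last 30 bases of the ITGAV window, chr2:186590076-186590105 on the plus strand, with the 6 bases inside the site in capitals.
ITGAV: gcgtggagcggcggagccggagggAAGCAA

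For the genes other than ITGA3 with a site within 500 bases of their start, the 30 bases just before a RefSeq start are shown. They give the base composition of DNA ahead of that start, and lie under no listed site. Capitals mark CG dinucleotides, which read the same on both strands. The runs are chr1:183023390-183023419 (plus strand), chr10:32958231-32958260 (minus strand), chr2:172427556-172427585 (plus strand) and chr2:186590026-186590055 (plus strand).
LAMC1: caccccctgctccttcctcccCGggggCGc
ITGB1: accCGcCGCGccCGacaccCGggaggcccc
ITGA6: tgataaaaCGcctgCGagtctccagagaac
ITGAV: tcaggcctgaggtgCGgCGctcacccCGgc
ITGB1 held 5 CG dinucleotides in its run, ITGAV 3, LAMC1 2 and ITGA6 2, against a median of 1 and an upper quartile of 3 over the same stretch of all windows, so ITGB1 alone of these 4 was above the quartile. Among genes with no site near the start, LAMA5 held 4 and LAMB2 2, whereas ITGAE held 1 and LAMB1 0. At least 1 CG was held by 65.3% of all such stretches. Over the whole window, G and C made up 79.0% in LAMC1, 78.3% in ITGB1, 72% in ITGA6 and 70.7% in ITGAV, against a median of 58.7% and an upper quartile of 68.0% over all windows. A high share was also found at genes with sites elsewhere, such as LAMA5 (82.7%) and LAMB1 (71.0%), which had no site near the start. LAMB2 (58.7%) and ITGAE (61.3%) were nearer to the median. ITGA6, ITGAV and ITGB1 have a further RefSeq start each, not the one closest to these sites, whose windows held 53.0%, 41.3% and 40.7%.

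A site was assigned to 10 of the 38 genes, 26.3% (13.4 to 43.1), against 13.2% of 20056 protein-coding genes. The family's genes are long, with a median span of 79243 bases against 24092 bases for all protein-coding genes, and among protein-coding genes between the family's lower and upper quartile of span the share was 16.0%. The first of these shares lies just below the family's interval and the second lies inside it. The 10 genes were ITGA3 with 64 sites, ITGA6 with 9, LAMC1 with 8, ITGB1 with 5, LAMB2 and LAMC3 with 4 each, LAMA5 with 3, and ITGAE, ITGAV and LAMB1 with 1 each. The median was 4 sites in these genes and 2 in all 2645 protein-coding genes with a site. Per 10 kb of span, which takes the family's longer genes into account, the medians were closer, 0.585 and 0.468 sites. ITGA3 alone held 64% of the family's sites.

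**Figure D1:**
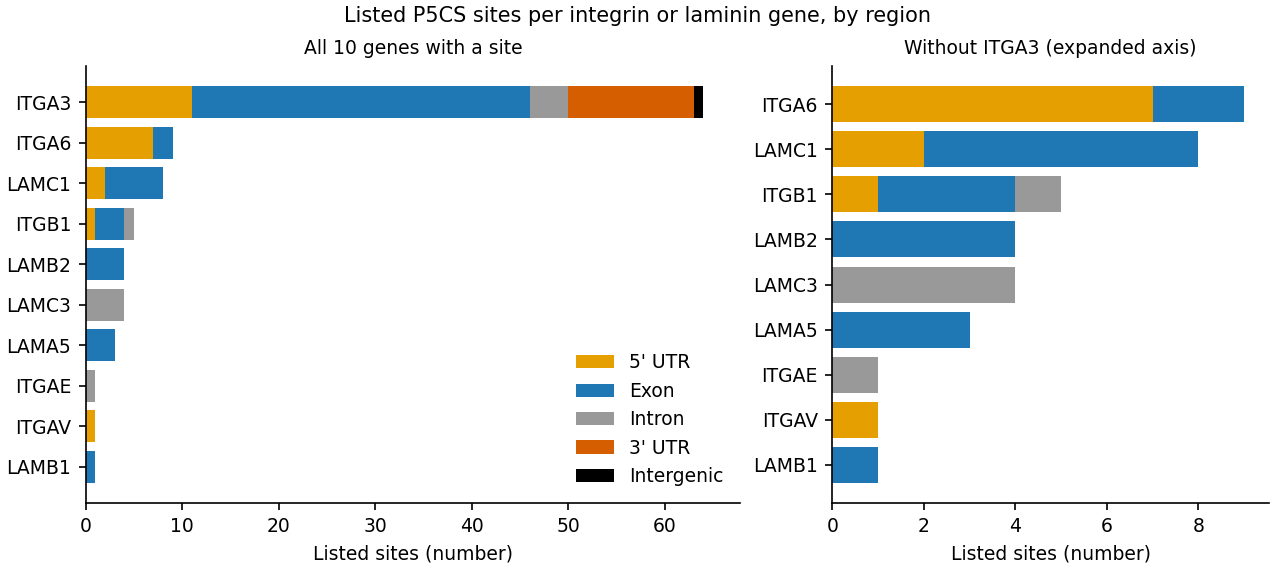
Number of listed sites (x axis) in each of the 10 genes with a site, coloured by the region that the list gives; the right panel leaves out ITGA3 to expand the axis. ITGA3 has 64 sites and each other gene 9 or fewer, and 3′ UTR sites are seen in ITGA3 alone.

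Counts by role rest on few genes, and stand beside 13.2% of all protein-coding genes and 16.0% of those of like span. Sites were found in 2 of the 3 alpha subunits of laminin receptors, ITGA3 and ITGA6, and not in ITGA7. They were found in 1 of 4 alpha subunits that recognise the RGD motif of matrix proteins (ITGAV) and 1 of 5 leukocyte alpha subunits (ITGAE). None of the 4 collagen-receptor subunits ITGA1, ITGA2, ITGA10 and ITGA11 had a site, nor did ITGA4 or ITGA9. Of 8 beta subunits 1 had a site, ITGB1, the partner of most alpha subunits. Of the laminin chains, 1 of 5 alpha and 2 of 4 beta chains had a site, as did the gamma chains LAMC1 and LAMC3. No site was listed for 21 integrins. Besides those named above, these were ITGA2B, ITGA5, ITGA8, ITGAD, ITGAL, ITGAM, ITGAX and ITGB2 to ITGB8. Among the laminin alpha and beta chains, LAMA1 to LAMA4, LAMB3 and LAMB4 were at 0. The median span was 79243 bases in the genes with a site, against 77319 bases in those without.

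Subunits that assemble with each other could be read side by side. ITGA3 pairs with ITGB1, and the genes of this pair held 69 sites between them. ITGA6 pairs with ITGB1 or with ITGB4, and ITGB4, the hemidesmosome partner, had 0 sites. LAMA5, LAMC1 and either LAMB1 or LAMB2 form the trimers common in adult basement membranes, and all 4 genes had sites. These are counts of listed genes, with no test.

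ITGA3 (ENSG00000005884.18, chromosome 17, 50056110 to 50090481, plus strand) encodes the alpha subunit of an epithelial laminin receptor. Its 64 sites ranked 9 among protein-coding genes, at 18.6 sites per 10 kb of span, against a median of 0.468 in protein-coding genes with a site. By that density it ranked 57. Of all protein-coding genes 0.912% had at least 10 sites, and ITGA3 was the family's single gene among them.

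Exons outside the untranslated regions held 35 of the ITGA3 sites, the 3′ UTR 13, the 5′ UTR class 11, introns 4, and 1 site lay just ahead of the transcript and was called intergenic. Exons and UTRs together thus had 92.2% (82.7 to 97.4) of its sites. In the 183 protein-coding genes with 10 or more sites the median was 72.7%, and 66 of them, ITGA3 included, were at or above its share. The 3′ UTR count ranked 4, the 5′ UTR count 5 and the exon count 8 among protein-coding genes.

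Sites covered 62.0% of bases in a stretch at the 5′ end of ITGA3 and 23.5% in a stretch of its 3′ UTR. Both stretches were bounded by the sites themselves, so these shares do not compare the whole 5′ end with the whole 3′ UTR. The exon groups described below include introns and are not compared with them. Between 50056060 and 50056620, a stretch of 561 bases that starts 50 bases ahead of the annotated transcript, 16 sites lay, 8 on each strand. Opposite-strand sites covered 348 of the 561 bases (62.0%) and gene-strand sites 248 (44.2%). The union of both strands also covered 348 bases, so every base covered on the gene strand was covered on the opposite strand as well. The list annotates 2 of these sites as promoter, both on the opposite strand, chr17:50056060-50056140 at 81 bases wide and chr17:50056440-50056480 at 41. The second was assigned to another transcript of the gene, which starts at that position.

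Exonic sites of ITGA3 named 16 of the 26 exons of the annotated transcript. The counts per exon that follow leave out all UTR sites, so they do not rank exons by all their sites. Exon 15 had 5 sites, exons 1 and 2 had 4 each, exon 22 had 3, and exons 8, 12, 13, 14, 20, 23 and 24 had 2 each. Exons 7, 11, 18, 19 and 25 had 1 each. Exons 3 to 6, 9, 10, 16, 17 and 21 had no exonic site, and exon 26 is represented by no exonic site, although the list gives UTR sites no exon number. Exons 11 to 15 made a tight group, with 12 sites in 1621 bases, introns included. A second group ran over exons 18 to 23, with 9 sites in 3121 bases, 7 of them on the opposite strand.

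The longest stretches of ITGA3 with no site were 7059 bases (50065001 to 50072059) and 6379 bases (50081381 to 50087759), whereas the median gap between neighbouring places was 189 bases. Introns held 3 sites in intron 1, all opposite to the gene, and 1 site in intron 3 on the strand of the gene. In the 3′ UTR, 13 sites lay between 50089140 and 50090200, 8 on the opposite strand and 5 on the strand of the gene, and covered 249 of 1061 bases (23.5%). The widest there was a pair of 61 bases with the same coordinates on each strand, chr17:50089140-50089200. ITGA3 was the 1 gene with a 3′ UTR site among the family's 10 genes with sites (10%), near the background of 381 among the 2645 protein-coding genes with sites (14.4%).

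**Figure D2:**
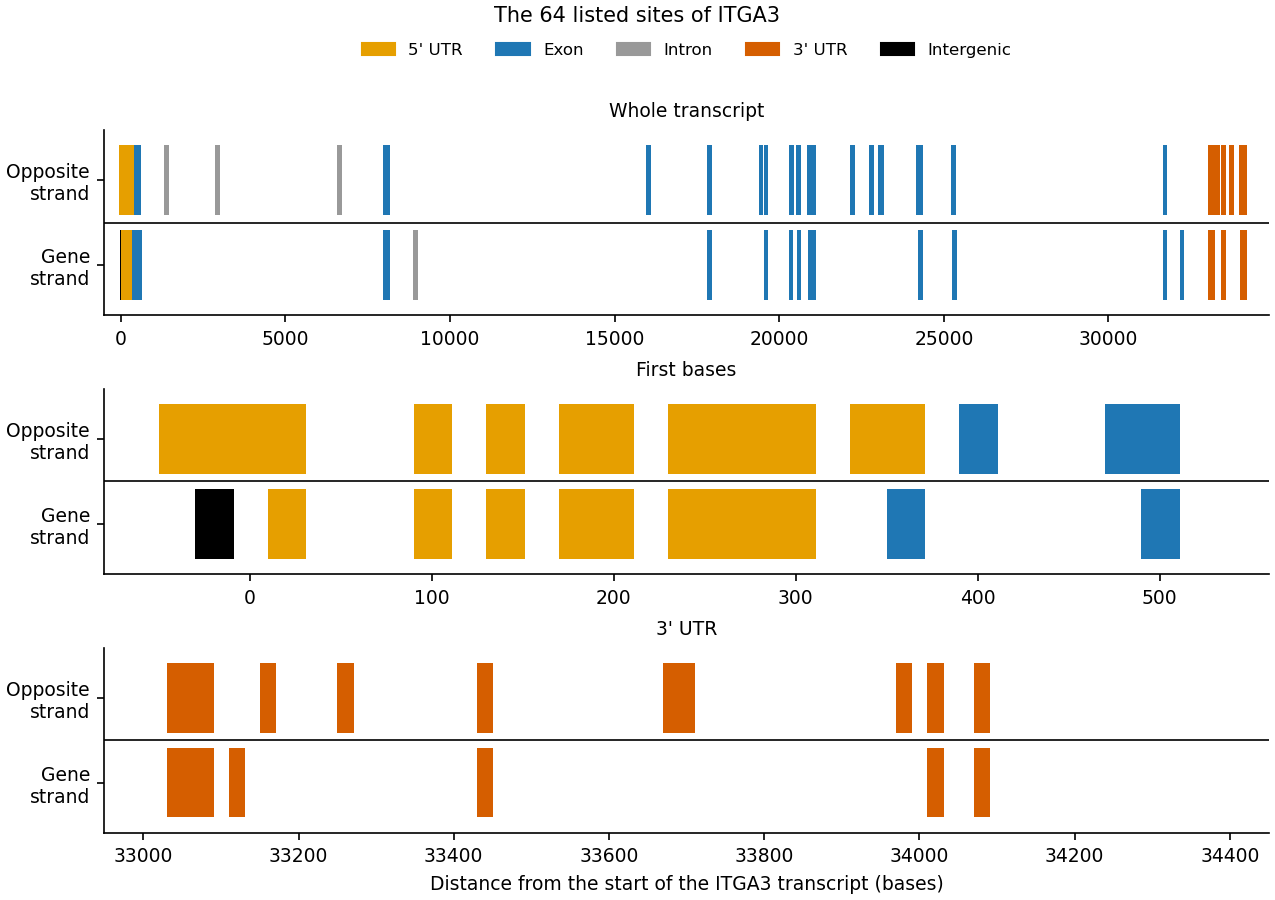
The 64 ITGA3 sites by distance in bases from the transcript start (x axis), opposite-strand sites above the line and gene-strand sites below it; the top panel shows the whole transcript, with narrow sites drawn wider than their true size to be visible, and the lower panels show the first bases and the 3′ UTR to scale. Sites crowd at both ends and over the exon groups, and most gene-strand blocks lie beneath an opposite-strand block.

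ITGA6 (ENSG00000091409.16, chromosome 2, 172427336 to 172506459, plus strand) is the other laminin-binding alpha subunit with sites. Of its 9 sites 7 were in the 5′ UTR class and 2 in exon 6, with none in introns or the 3′ UTR, and it ranked 8 among protein-coding genes by 5′ UTR sites. Pairs with the same coordinates on each strand lay at chr2:172427700-172427720, chr2:172427780-172427800 and chr2:172467500-172467540. The last of these and a gene-strand site at chr2:172465620-172465640 are called 5′ UTR although they lie 40082 and 38202 bases from the start of the assigned transcript. The list annotates the pair at chr2:172427780-172427800 as promoter and assigns it to another transcript of the gene. The 2 exon 6 sites, at chr2:172474160-172474180 and chr2:172474220-172474240, were both on the opposite strand. All 5 of the sites away from the start also overlapped the RefSeq span of PDK1-AS1, a long noncoding RNA gene, and 1 of them that of ITGA6-AS1. Which of the overlapping RNAs gave these sites cannot be told apart. In the rest of the family no site overlapped another RefSeq gene.

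ITGB1 (ENSG00000150093.20, chromosome 10, 32900318 to 32958230, minus strand) had 5 sites, 4 of them on the opposite strand. Exon 13 held a pair with the same coordinates on each strand, chr10:32911520-32911540. Exon 7 held a site of 41 bases at chr10:32923680-32923720 on the opposite strand. Near the start, an opposite-strand site in the 5′ UTR at chr10:32958140-32958160 lay 93 bases from the start of the assigned transcript, and another in intron 1 at chr10:32957920-32957940 lay 313 bases from it.

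ITGAV and ITGAE had 1 site each. ITGAV encodes the alpha subunit of vitronectin receptors, and its site is the 5′ UTR site shown above, 90 bases from the start of the assigned transcript. ITGAE encodes the alpha subunit by which intraepithelial T cells bind E-cadherin. Its site, chr17:3797720-3797740, lay in intron 1, on the strand of the gene and 3448 bases from the start.

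LAMC1 (ENSG00000135862.6, chromosome 1, 183023420 to 183145592, plus strand), the most widely used gamma chain, had 8 sites at 4 places, and each of the 4 places carried a site on both strands. The first place was the 5′ UTR, 80 bases from the start, where the opposite-strand site at chr1:183023500-183023560 was 61 bases wide and the gene-strand site at chr1:183023500-183023520 was 21. In exon 2 the order was the other way, with 21 bases for the opposite-strand site at chr1:183103480-183103500 and 41 for the gene-strand site at chr1:183103480-183103520. The other two places, in exon 12 (chr1:183121740-183121760) and exon 25 (chr1:183136540-183136560) of 28, had the same coordinates on each strand.

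LAMB2 (ENSG00000172037.14, chromosome 3, 49121114 to 49133050, minus strand), a beta chain prominent at neuromuscular junctions and in the kidney filter, had 4 exonic sites in a short gene of 11937 bases, or 3.35 per 10 kb. Opposite-strand sites lay in exon 26 (chr3:49123140-49123160) and exon 20 (chr3:49125120-49125140). In exon 17 an opposite-strand site at chr3:49126000-49126020 lay within a gene-strand site at chr3:49125980-49126020. LAMB1, the other widely expressed beta chain, had 1 opposite-strand site in exon 8 of 33, at chr7:107978060-107978080.

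LAMA5 (ENSG00000130702.15, chromosome 20, 62309065 to 62367312, minus strand), the alpha chain of most adult epithelial basement membranes, had 3 exonic sites. Exon 26 of 80 held a pair with the same coordinates on each strand at chr20:62333100-62333120, and exon 56 an opposite-strand site at chr20:62316880-62316900. LAMC3 (ENSG00000050555.19, chromosome 9, 131009174 to 131094473, plus strand) encodes a gamma chain of restricted expression. Its 4 sites were all intronic, with a gene-strand site at chr9:131022800-131022820 and an opposite-strand site at chr9:131025140-131025160 in intron 1, and a pair on both strands at chr9:131028880-131028900 in intron 2. All of its sites were at the smallest width. LAMC3 and ITGAE were the 2 genes with no exonic or UTR site, and together held 5 of the family's 10 intronic sites.

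**Figure D3:**
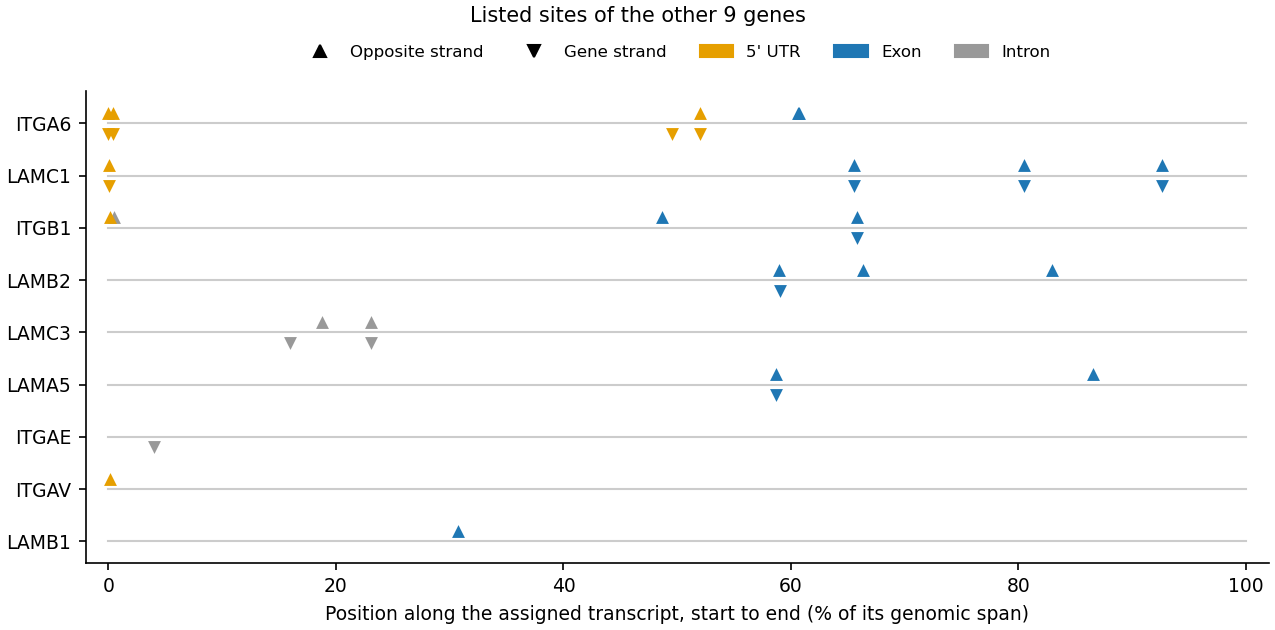
Sites of the other 9 genes along the assigned transcript (x axis, percent of its genomic span from start to end), pointing up for the opposite strand and down for the strand of the gene, coloured by region. ITGA6, LAMC1, ITGB1 and ITGAV have sites at the start, and the LAMC3 and ITGAE sites are intronic.

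By region the family's 100 sites divided into 54 in exons (54.0%, 43.7 to 64), 22 in the 5′ UTR class (22.0%, 14.3 to 31.4), 13 in the 3′ UTR (13.0%, 7.11 to 21.2), 10 in introns (10.0%, 4.90 to 17.6) and 1 in intergenic sequence. Among the 9982 sites of all protein-coding genes, which include these, exons held 44.2%, the 5′ UTR class 8.35%, the 3′ UTR 8.03% and introns 36.4%. Exons and UTRs together had 89.0% (81.2 to 94.4) of the family's sites, against 60.6% for protein-coding genes and 47.1% for the whole list. ITGA3 weighs heavily in these shares. Without it, 36 sites remained, of which 52.8% were in exons, 30.6% in the 5′ UTR class, 16.7% in introns and none in the 3′ UTR (0 to 9.74%). ITGA6 held 7 of these 11 sites in the 5′ UTR class, LAMC1 2, and ITGB1 and ITGAV 1 each. No test was made of these differences, since sites of 1 gene share their source.

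Sites near transcript starts made up the same share with and without ITGA3. Of the family's sites, 25% had their midpoint within 500 bases of the start of the assigned transcript, against 10.1% of the sites of protein-coding genes and 15.3% of the whole list. They were 16 of the 64 sites of ITGA3, 4 of ITGA6, 2 each of ITGB1 and LAMC1, and 1 of ITGAV. The laminins differed in this from the integrins in number, with 2 of 20 laminin sites, against 23 of 80 integrin sites. That difference was not tested.

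**Figure D4:**
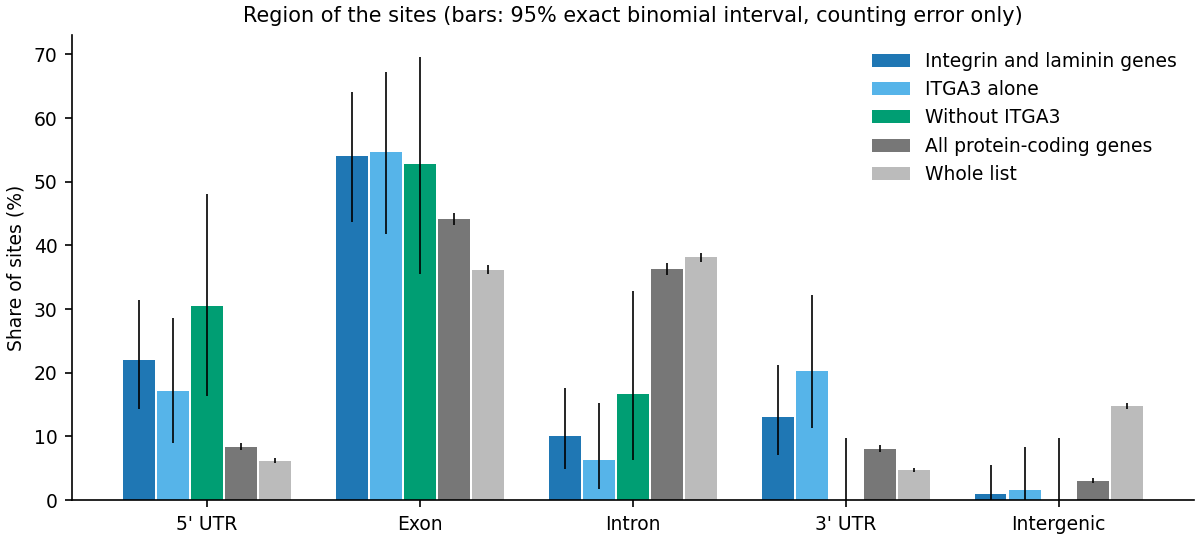
Share of sites in percent (y axis) in each region for the integrin and laminin genes, ITGA3 alone, the family without ITGA3, all protein-coding genes and the whole list; error bars are exact 95% binomial intervals for counting error. The family's intron share is 10.0%, against 36.4% for protein-coding genes, and its 5′ UTR share is 22.0%, against 8.35%.

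Sites on the strand opposite to the gene numbered 60 of 100 (60.0%, 49.7 to 69.7), and 40 lay on the strand of the gene. This share was near the background, 59.9% for protein-coding genes and 58.3% for the whole list. It was 60.0% in the integrins and 60.0% in the laminins, 59.4% in ITGA3 and 61.1% in the other genes together. By region, 34 of 54 exonic sites, 12 of 22 in the 5′ UTR class, 8 of 13 in the 3′ UTR and 6 of 10 in introns were opposite to the gene. Opposite-strand sites outnumbered gene-strand sites in 7 genes, LAMC1 and LAMC3 had equal numbers, and ITGAE had its single site on the strand of the gene.

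Many of these sites were the same stretch counted on each strand. Of the 100 sites, 42 had a partner with identical coordinates on the other strand and 25 more shared at least 1 base with one, together 67.0%, against 57.6% for protein-coding genes. The remaining 33 sites divided into 27 opposite to the gene and 6 on its strand. That is 81.8% opposite, against 73.7% for protein-coding genes. Identical pairs are 50% opposite by construction, so leaving them out moves both shares away from 50%. Merging sites that share a base left 66 places. Both strands had sites at 33 of them (50%), the opposite strand alone at 27 and the strand of the gene alone at 6. For protein-coding genes 40.0% of 7070 places had sites on both strands.

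**Figure D5:**
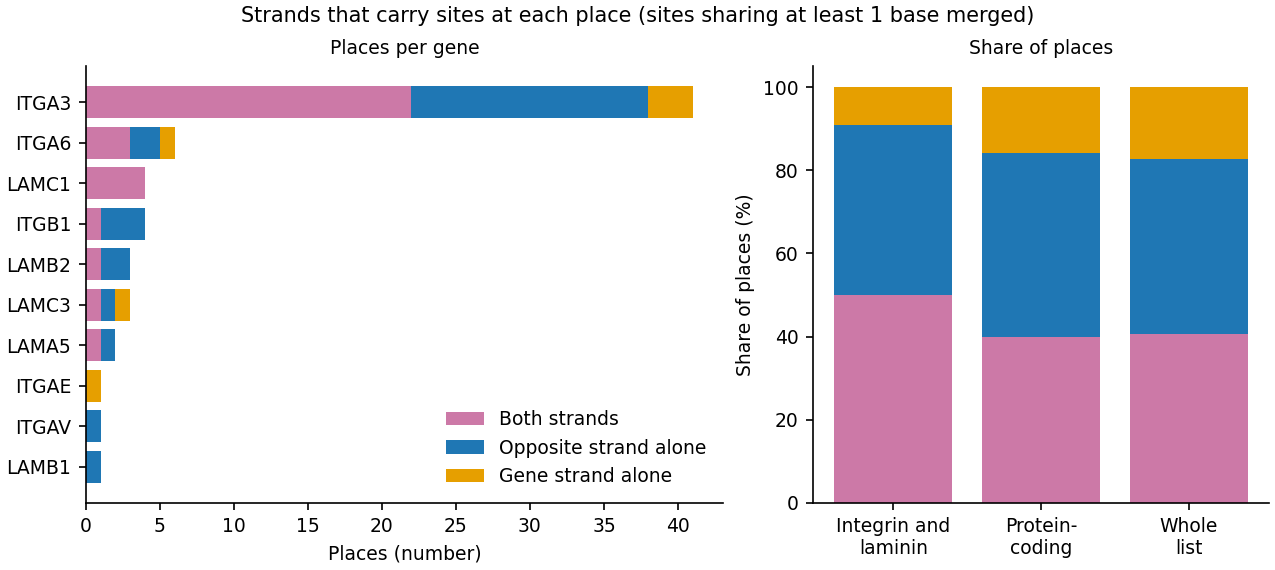
Number of places per gene (left, x axis) and share of places in percent (right, y axis) with sites on both strands, on the opposite strand alone or on the strand of the gene alone, after merging sites that share a base. Of the 66 places in the family 33 have both strands and 6 the strand of the gene alone.

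Opposite-strand sites of ITGA3 were also wide more often than its gene-strand sites, a difference that was not tested. Of its 38 opposite-strand sites 14 were wider than 21 bases, against 3 of its 26 gene-strand sites. At 10 overlaps without identical coordinates, 2 of which shared 1 base, the opposite-strand site was the wider in 9 and the widths were equal in 1. The opposite-strand site chr17:50056060-50056140 enters 2 of these overlaps. The 13 pairs with identical coordinates, which have equal widths, are not among them. The mean width was 32.1 bases on the opposite strand and 25.6 on the strand of the gene in ITGA3, whereas in the other genes it was 24.6 and 25.3. For protein-coding genes the means were 26.6 and 26.2.

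Partners of integrins and laminins were counted in 3 lists. The lists were chosen with earlier results of these data known, so their shares are descriptions and were not tested. Each share stands beside the 13.2% of all protein-coding genes, with no allowance for gene length. Of 31 integrin adaptors and adhesion kinases, 11 had a site (35.5%), against the 13.2% of protein-coding genes given above. ACTN4 and ACTN1, the actin cross-linkers of adhesions, had 18 and 11 sites, BCAR1 and PXN, scaffolds of adhesion signalling, had 15 and 12, and FLNA, which binds beta tails and actin, had 15. Most sites were exonic in FLNA (14 of 15) and intronic in ACTN1 (8 of 11). TLN1, the main activator of integrins, had none. Of 20 basement membrane proteins and other integrin ligands, 5 had a site (25%). These were HSPG2, the proteoglycan perlecan, with 36 sites, AGRN, agrin, which binds laminin, with 31, THBS1 with 7, COL18A1 with 4 and COL4A3 with 1. Of the HSPG2 sites 35 were exonic, and of the AGRN sites 20. FN1, the ligand of ITGA5, had none. Of 10 other laminin receptors and hemidesmosome proteins, 7 had a site (70.0%), led by PLEC with 100, DAG1, which encodes the laminin receptor dystroglycan, with 10, DST with 6, ERBIN with 4 and CD151, the tetraspanin partner of ITGA3, with 2. As with ITGA3 among the integrins, PLEC held 100 of the 124 sites of its list, whereas ACTN4, the adaptor with most, held 18 of 90.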

How the data were processed

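LACE-seq libraries of NCI-H1299 cells (2 anti-P5CS, 2 IgG, grouped by sample title) were represented by 1 deposited table of 17625 sites, which holds positions, widths, strands, regions and gene names and no measured level. Per the submitters' processing notes, fastp 0.23.2 and STAR 2.7.10a were used with hg38, and no step is assigned to either. No source used here gives the site caller, its threshold, how IgG was used or whether replicates were pooled. The number of columns of values per library is 0, so the planned comparison of anti-P5CS with IgG could not be run. Members were taken by symbol, and they and the lists were chosen with earlier results of these data known. Strand was set against the strand of the assigned transcript, and the gene background is the RefSeq table of GRCh38.p14, matched on Entrez ID. All genes with a site are named, and in each related list up to 5 with most sites, besides TLN1 and FN1, chosen after their values were seen. The counting steps were tested on simulated data. Alternatives changed site width, gene assignment, strand pairs and the genes counted. Counting was done in Python 3.11.15 with pandas 2.3.3, numpy 2.4.6, scipy 1.17.1 and matplotlib 3.10.9.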

Additional observations from a re-analysis of the deposited data

How the results depend on the processing

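No paired analysis was possible because the list holds no value per library. The count of 10 genes ranged from 7 to 10 under the other choices, and was 5 with the 23 sites wider than 21 bases. Wider sites also gave 39.1% in the 5′ UTR class, 0% in introns and 73.9% opposite to the gene. With each gene counted once per region the shares were 38.9% in exons, 22.2% in introns and 5.56% in the 3′ UTR. Without ITGA3 the 3′ UTR share was 0%. Laminins alone gave 70.0% in exons, 10.0% in the 5′ UTR class, 20% in introns and 0% in the 3′ UTR. Without any site that shares a base with the other strand, a choice made after seeing the data, 81.8% were opposite to the gene. Part of this shift is arithmetic, because identical pairs hold equal numbers on each strand. The remaining alternatives stayed inside the counting intervals. Beyond that arithmetic, the cause of these shifts was not tested.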
